A study of Mus musculus with 8 samples.

Results

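The oxidative phosphorylation genes are the nuclear genes for the respiratory complexes of the mitochondrial inner membrane. They were chosen by symbol alone, as every measured gene named Nduf, Sdha to Sdhd, Uqcr, Cox4 to Cox8 with a letter, or Atp5. The rule gave 93 of the 19505 genes tested, each with 1 probe set: 46 of complex I, 4 of complex II, 8 of complex III, 18 of complex IV and 17 of complex V. No expression value entered the choice. The complex I genes include 8 assembly factors, which build the complex without staying in it.

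RNA came from whole colon of 8 mice. All had acute graft-versus-host disease, an attack of donor T cells on the recipient's tissues. The recipients were wild-type BALB/c mice, and after lethal irradiation they received bone marrow and T cells of C57BL/6 donors on day 0. Oral dosing ran over days 0 to 7, with hBD-2 at 1.2 mg/kg in 4 mice and with PBS in the other 4. Colons were collected on day 7. The defensin hBD-2 (human beta-defensin 2) is an antimicrobial peptide of epithelia. No untransplanted or disease-free mice were analysed here, so every value compares hBD-2 with PBS within the disease. Each mouse gave 1 Affymetrix array.

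Complexes I and II pass electrons from NADH and succinate to ubiquinone. Complex III hands them on to cytochrome c, and complex IV reduces oxygen. The proton gradient built on the way drives complex V, the ATP synthase. In the colon the absorptive epithelial cells oxidise butyrate made by bacteria, which makes them rich in mitochondria. The mitochondrial genome encodes some core subunits of complexes I, III, IV and V, and those genes are not covered by the name rule.

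The genes of all 5 complexes stood at similar levels in both groups. None of the 93 genes passed an adjusted p of 0.05 in limma, the linear model fitted to all genes, where 8 of 19505 genes (0.0410%) did. The members' median log2 difference, hBD-2 minus PBS, was 0.044, against 0.012 over all genes. A log2 difference of 1 is a doubling. All 93 intervals at 95% confidence lay within a 2-fold difference either way, against 98.7% of all genes. Within 1.5-fold lay 90 of them (96.8%, against 91.1% of all genes), and within 1.25-fold 74 (79.6%, against 49.8%). The members' typical standard error was also smaller, with a median of 0.079 log2 units against 0.099 over all genes.

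**Figure D1:**
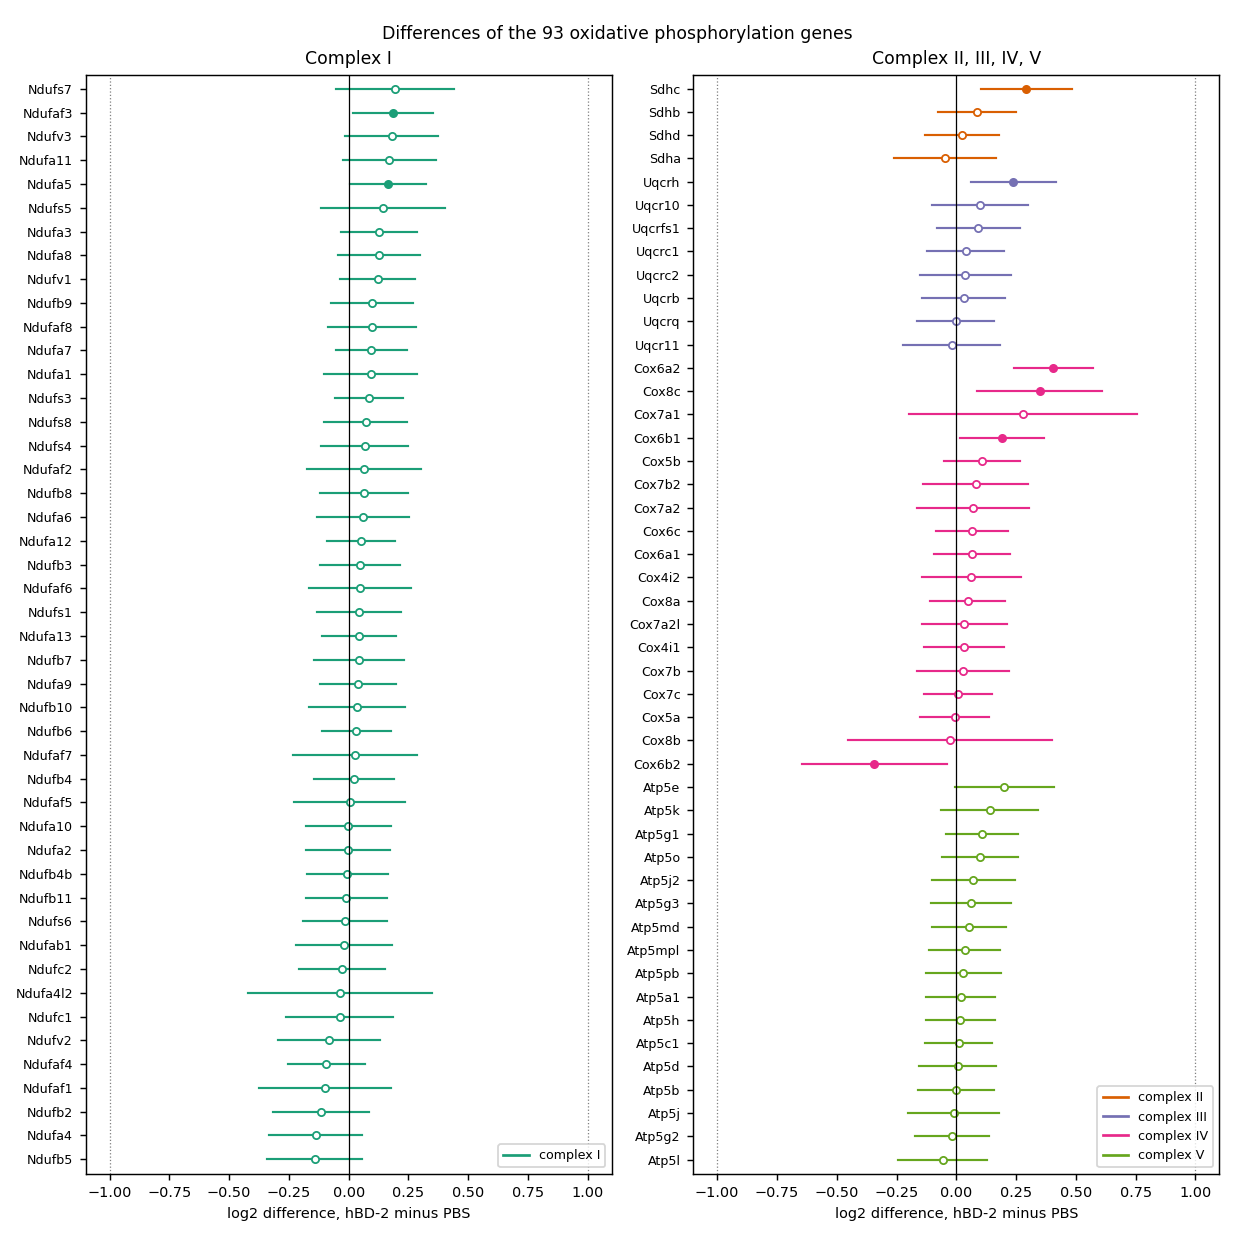
Log2 difference, hBD-2 minus PBS, of each of the 93 genes (circles) with its 95% interval (lines), grouped and coloured by complex. Filled circles have an unadjusted p under 0.05, and dotted lines mark a 2-fold difference; every interval stays inside them, and the widest belong to Cox7a1, Cox8b, Ndufa4l2 and Cox6b2.

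Small differences leaned towards hBD-2. The difference was positive in 69 of the 93 genes (74.2%), against 53.5% of all genes. Higher in hBD-2 colons with an unadjusted p under 0.05 were 7 members (7.53%), where the background was 5.85%. Lower at that level was 1 member (1.08%), against 5.98%. All 4 hBD-2 arrays lay above all 4 PBS arrays in 8 members (8.60%), where 2.80% of all genes did so. In no member did all hBD-2 arrays lie below all PBS arrays, against 3.60% of all genes.

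That lean did not run evenly through the mice. The mean deviation of the 93 genes from their 8-array means was 0.067, -0.010, 0.067 and -0.019 log2 units in hBD-2 1 to 4, against -0.023, -0.032, 0.037 and -0.087 in PBS 1 to 4. The group means were 0.026 ± 0.047 in hBD-2 colons and -0.026 ± 0.051 in PBS colons (SD, n = 4 each). hBD-2 1 and 3 were the highest, PBS 4 was the lowest, and PBS 3 lay above hBD-2 2 and 4. The groups therefore overlapped.

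hBD-2 1 and 3 are also the arrays that stand apart across all genes. They lay at 25.2 and 25.4 on the first principal component (34.6% of the variance), while the other 6 lay between -14.9 and -2.45. Their mean deviations over 11 genes of the posterior colon were 1.15 and 0.93, against -0.36 and -0.34 in hBD-2 2 and 4 and -0.51 to -0.17 in the PBS arrays. Without these 2 arrays, 49 of the 93 members were positive. At an unadjusted p under 0.05, 3 were higher, where 7.35% of all genes were. The members' means were highest on these 2 arrays, so leaving them out was bound to lower the count of positive members. The members' median was then 0.016, against 0.020 over all genes. With the posterior colon mean as a covariate, 50 were positive and 3 higher, where 7.33% of all genes were higher. The median was 0.016, against 0.020 over all genes. That covariate is high on the same 2 arrays only, so the 2 settings are not separate results. The part of posterior colon genes in the lean was not tested. Leaving out PBS 4 alone, or hBD-2 1 alone, left 4 members higher, where 7.43% and 4.93% of all genes were.

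The defining markers of colon epithelium lay above the array medians, which ran from 6.77 to 6.82 on the 8 arrays. Epcam averaged 12.08 ± 0.066 log2 units in hBD-2 and 12.05 ± 0.028 in PBS colons, and Krt20 averaged 12.21 ± 0.043 in hBD-2 and 12.28 ± 0.074 in PBS colons (SD, n = 4 each). Of 21 colonocyte markers, 15 were positive, 2 were higher at an unadjusted p under 0.05 (9.52%, against 5.85% of all genes) and none was lower. The 2 were Car4, by 0.39 ± 0.12 (SE, adjusted p = 0.242), and Slc26a3, by 0.33 ± 0.11 (SE, adjusted p = 0.266). For Slc26a3 every hBD-2 array lay above every PBS array. In bulk tissue, fewer cells of a type and less RNA per cell cannot be told apart.

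**Figure D2:**
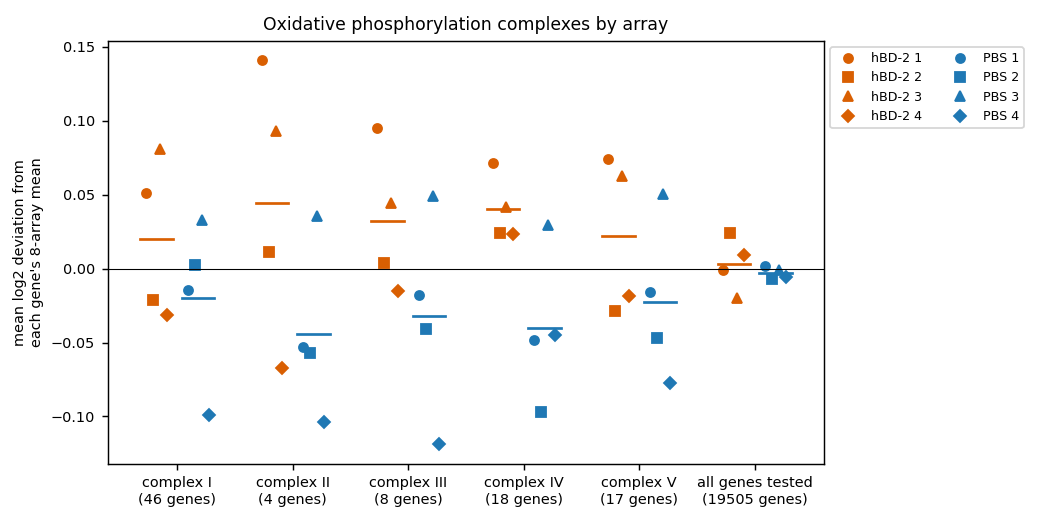
Mean log2 deviation of the genes of each complex from their 8-array means, for each array, with all 19505 genes at the right; hBD-2 arrays (orange) are left of PBS arrays (blue), symbols mark the replicate number and bars the group means. hBD-2 1 and 3 are the highest pair in complexes I, II, IV and V, PBS 4 is the lowest in all but complex IV, and the 2 groups overlap in every complex.

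The promoters of these genes carry known motifs, and 4 are shown to illustrate 2 of them. They come from the 8 genes whose hBD-2 arrays all lay above all PBS arrays. Of the other 4 genes, Ndufaf3 and Ndufv3 held none of the motifs searched, and Cox6a2 and Sdhc had no promoter entry. In mammals, NRF1 and the ETS factor GABP are known activators of many respiratory chain genes. Each line gives the 100 bases before the transcription start from RefSeq on GRCm38.p6, 5′ to 3′ on the gene's own strand, with the motif in capitals. Uqcrh (chr4:116075071-116075170, minus strand), Cox6b1 (chr7:30626115-30626214, minus strand) and Ndufs3 (chr2:90904722-90904821, minus strand) hold the ETS motif CCGGAAG, which in the lines of Uqcrh and Cox6b1 reads as its reverse complement CTTCCGG. Ndufa5 (chr6:24527691-24527790, minus strand) holds the NRF1 motif, which lies in both of its overlapping windows, and the line ends at the upstream start.
Uqcrh: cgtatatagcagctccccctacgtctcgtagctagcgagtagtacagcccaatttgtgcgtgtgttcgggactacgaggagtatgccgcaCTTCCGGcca
Cox6b1: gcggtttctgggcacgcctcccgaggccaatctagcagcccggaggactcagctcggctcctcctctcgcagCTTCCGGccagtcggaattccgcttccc
Ndufs3: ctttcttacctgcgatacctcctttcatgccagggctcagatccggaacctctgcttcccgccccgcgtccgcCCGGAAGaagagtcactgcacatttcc
Ndufa5: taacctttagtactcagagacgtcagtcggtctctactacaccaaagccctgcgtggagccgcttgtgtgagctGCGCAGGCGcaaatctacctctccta
Each motif begins within 28 bases of the start: 10 bases before it in Uqcrh, 28 in Cox6b1, 27 in Ndufs3 and 26 in Ndufa5.

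RefSeq promoter windows of 300 bases, 250 before and 50 after the start, were found for 77 of the 93 members, as 82 windows. The NRF1 motif GCGCANGCG, on either strand, stood in 23 of them (28.0%), against 6.25% of all 32851 promoter windows. CCGGAAG stood in 19 (23.2%, against 8.86%). The YY1 motif AAGATGGCG stood in 8 (9.76%, against 1.40%), and AAGGTCA, the core motif of the oestrogen-related receptors, also in 8 (9.76%, against 4.72%). None of these letter strings contains another. The members' windows were richer in G and C, with a median of 58.0% against 52.7%. Among the 7115 windows in the middle range of the members' GC content, 54.1 to 62.3%, the shares over all promoters were 8.94% for NRF1, 13.8% for ETS, 2.25% for YY1 and 3.85% for AAGGTCA. The 40 member windows in that range stood at 27.5%, 22.5%, 15.0% and 12.5% for the same motifs.

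By complex, NRF1 matched in 11 of 43 windows of complex I, 2 of 3 of complex II, 2 of 5 of complex III, 1 of 13 of complex IV (Cox6a1) and 7 of 18 of complex V. Of the isoforms with restricted expression, the 4 with a window held none of the 4 motifs. The responses with and without a motif were close. The median log2 difference was 0.030 in the 22 genes with an NRF1 match and 0.048 in the 55 without, and 0.052 in the 19 with an ETS match and 0.039 in the 58 without. A match describes letters in a window, not a site in use.

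**Figure D3:**
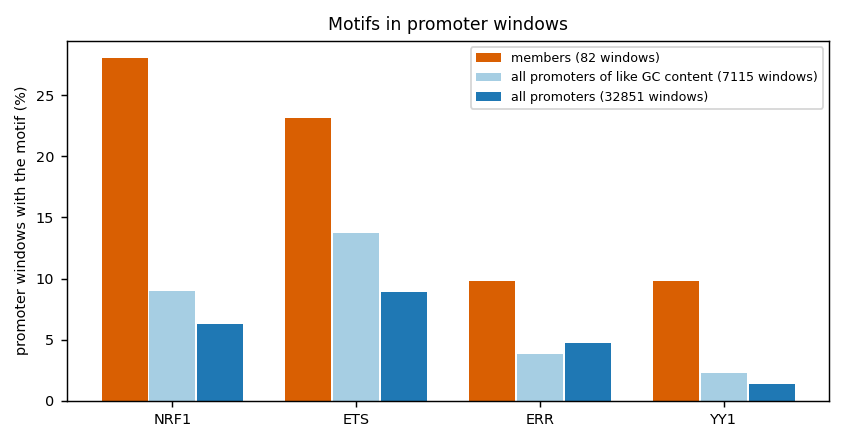
Share of 300-base promoter windows that hold each motif on either strand, in percent, for the 82 windows of the members, 7115 windows of like GC content and all 32851 windows. The members' bar is the tallest for each of the 4 motifs, at 28.0% for NRF1 against 8.94% at like GC content; ERR is the oestrogen-related receptor motif.

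Complex I takes electrons from NADH. Its 46 genes had a median log2 difference of 0.044, with a range of -0.14 to 0.19; 31 were positive, 2 were higher and none was lower at an unadjusted p under 0.05. That is 4.35% higher, below the 5.85% of all genes. With hBD-2 1 and 3 left out, the median was -0.0098. The 6 core subunits, which hold the flavin and the iron-sulfur clusters, ran from -0.083 to 0.19. Ndufv1, the flavin-binding subunit, had 10.61, 10.60, 10.67 and 10.56 log2 units in hBD-2 1 to 4, against 10.53, 10.42, 10.58 and 10.42 in PBS 1 to 4. The lowest hBD-2 value lay under the highest PBS value, and the difference was 0.12 ± 0.070 (SE, adjusted p = 0.526). Ndufs1, the largest iron-sulfur subunit, had 10.18, 9.99, 10.15 and 9.95 in hBD-2 colons, against 9.96, 10.00, 10.12 and 10.00 in PBS colons. Its difference of 0.045 ± 0.079 (SE) rested on hBD-2 1 and 3 and was -0.051 without them. Ndufs7, which carries the last cluster before ubiquinone, differed by 0.19 ± 0.11 (SE), with its lowest array in PBS 4 at 9.76.

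Ndufs3, another core subunit, had 10.94, 10.94, 10.93 and 10.94 log2 units in hBD-2 1 to 4, against 10.84, 10.89, 10.90 and 10.79 in PBS 1 to 4. The groups did not overlap, but the difference was 0.084 ± 0.064 (SE, adjusted p = 0.632). Ndufs3 lies outside the rule for named genes and was chosen after its values were seen.

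The 31 accessory subunits, which surround the core, had a median of 0.043. Ndufa5, a subunit of the peripheral arm, had 9.68, 9.59, 9.72 and 9.71 log2 units in hBD-2 1 to 4, against 9.53, 9.58, 9.53 and 9.41 in PBS 1 to 4. The groups separated narrowly between hBD-2 2 and PBS 2, and the difference was 0.16 ± 0.071 (SE, adjusted p = 0.402). Ndufv3, a small accessory subunit beside the flavin site, also separated without reaching an unadjusted p of 0.05, at 6.75 to 6.84 in hBD-2 colons against 6.40 to 6.75 in PBS colons (0.18 ± 0.088, SE). Ndufa11, a membrane-arm subunit, differed by 0.17 ± 0.088 and Ndufa3 by 0.13 ± 0.071 (SE), both with overlapping groups.

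On the other side, Ndufb5, of the membrane arm, had a difference of -0.14 ± 0.089 (SE). Ndufa4 has a complex I name but is now counted as a subunit of complex IV. It had 11.24, 11.42, 11.17 and 11.51 log2 units in hBD-2 colons, against 11.51, 11.39, 11.50 and 11.49 in PBS colons. hBD-2 1 and 3 lay under all PBS arrays and hBD-2 4 did not, and the difference was -0.14 ± 0.088 (SE, adjusted p = 0.566). Its relative Ndufa4l2, induced by hypoxia in mammalian cells, ranged from 5.32 to 6.12 in hBD-2 colons against 5.56 to 6.09 in PBS colons. Ndufb4 and Ndufb4b are near-identical copies whose probes may share signal, and they stood at 0.024 and -0.0055.

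Of the 8 assembly factors, Ndufaf3 was higher at the unadjusted level. It had 7.54, 7.47, 7.55 and 7.50 log2 units in hBD-2 1 to 4, against 7.36, 7.18, 7.45 and 7.34 in PBS 1 to 4, with no overlap (0.19 ± 0.075, SE, adjusted p = 0.373). Ndufaf4, which works with Ndufaf3 in early assembly, stood the other way at -0.093 ± 0.073 (SE). The list's median was 0.037, with 6 positive and 2 negative.

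Complex II, succinate dehydrogenase, is also an enzyme of the tricarboxylic acid cycle. Sdhc, a membrane anchor that binds haem and ubiquinone, had 9.92, 9.74, 9.73 and 9.56 log2 units in hBD-2 1 to 4, against 9.40, 9.46, 9.51 and 9.41 in PBS 1 to 4. The groups did not overlap, and the difference was 0.29 ± 0.085 (SE, 1.22-fold, adjusted p = 0.230). Without hBD-2 1 and 3 it was 0.21, and the unadjusted p was no longer under 0.05. The other subunits did not share this size. Sdha, the flavoprotein that oxidises succinate, had 8.80, 8.66, 8.83 and 8.43 in hBD-2 colons, against 8.66, 8.75, 8.81 and 8.69 in PBS colons (-0.048 ± 0.096, SE). hBD-2 4 was the lowest of the 8. Sdhb, the iron-sulfur subunit, differed by 0.087 ± 0.074 and Sdhd, the other anchor, by 0.024 ± 0.069 (SE).

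Complex III passes electrons from ubiquinol to cytochrome c. Its 8 genes had a median of 0.039 and ran from -0.020 (Uqcr11) to 0.24 (Uqcrh). Uqcrh, the hinge protein at the cytochrome c1 contact, had 11.25, 11.22, 11.33 and 11.45 log2 units in hBD-2 1 to 4, against 11.04, 11.09, 11.19 and 10.99 in PBS 1 to 4. Every hBD-2 array lay above every PBS array, with hBD-2 4 highest, and the difference was 0.24 ± 0.080 (SE, 1.18-fold, adjusted p = 0.282). It was 0.26 without hBD-2 1 and 3. Uqcrh kept an unadjusted p under 0.05 in all 19 alternative settings run, while Sdhc kept it in 17, Cox6b1 in 14, Ndufaf3 in 11 and Ndufa5 in 9 of 19. Cox6a2 and Cox8c kept it in 18 of 18 and Cox6b2 in 11 of 18. The 3 core subunits were closer to even. Uqcrfs1, the Rieske iron-sulfur protein, differed by 0.092 ± 0.077 and Uqcrc1, a core protein, by 0.039 ± 0.072 (SE), both with overlapping groups. Uqcr10, a small subunit, differed by 0.098 ± 0.090 (SE).

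Complex IV, cytochrome c oxidase, is the complex whose subunits have tissue isoforms. Its 10 general subunits had a median of 0.056, and 9 were positive. Cox6b1, which faces the intermembrane space, had 10.94, 10.79, 10.79 and 10.81 log2 units in hBD-2 1 to 4, against 10.72, 10.58, 10.74 and 10.52 in PBS 1 to 4. The groups separated, with PBS 3 close under hBD-2 2, and the difference was 0.19 ± 0.078 (SE, adjusted p = 0.377). Cox4i1, the regulatory subunit that binds ATP, differed by 0.031 ± 0.075, Cox6a1 by 0.065 ± 0.072 and Cox8a by 0.047 ± 0.071 (SE). Cox7a2 differed by 0.070 ± 0.11 (SE), with hBD-2 1 and 3 at 10.02 and 10.04 and hBD-2 2 and 4 at 9.60 and 9.80. The PBS arrays lay at 9.70 to 9.92, under that first pair, and without hBD-2 1 and 3 the difference was -0.092.

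The 7 complex IV isoforms of restricted expression spread more widely, with a median absolute difference of 0.28. Of these, 2 were higher (28.6%, against 5.85% of all genes) and 1 lower (14.3%, against 5.98%) at an unadjusted p under 0.05. The 95% intervals of 3 of them, Cox6b2, Cox7a1 and Cox8c, reached past a 1.5-fold difference, which no other member's did. Except for Cox7a1, the 7 isoforms lay in the lower 50% of all genes by mean signal. Of the 8 members there, 6 were Cox8b, Cox7b2, Cox6b2, Cox4i2, Cox8c and Cox6a2, and the others were Ndufv3 and Ndufa4l2. No detection call was analysed here.

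Cox6a2, the heart and skeletal muscle form of subunit VIa, had the lowest p of all members and rank 61 of 19505 genes by p. It had 6.77, 6.64, 6.75 and 6.90 log2 units in hBD-2 1 to 4, against 6.40, 6.32, 6.34 and 6.37 in PBS 1 to 4. The groups lay well apart and the PBS arrays were close together. The difference was 0.41 ± 0.074 (SE, 1.32-fold), with an adjusted p of 0.0824. It was as large, 0.41, without hBD-2 1 and 3, and 0.36 to 0.45 when each array was left out in turn. Its adjusted p ran from 0.0489 to 0.286 over the alternatives, and the lowest value, with array weights estimated by limma, was under 0.05. The ubiquitous form Cox6a1, given above, did not separate.

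Of 14 skeletal muscle markers measured, 2 were higher at an unadjusted p under 0.05 (14.3%, against 5.85% of all genes) and none lower. Of the 14, 12 were positive, and the list's median was 0.12. Mb, myoglobin, differed by 0.27 ± 0.081 (SE, adjusted p = 0.236) and Myh2, a fast myosin, by 0.26 ± 0.066 (SE, adjusted p = 0.182), both with every hBD-2 array above every PBS array. Myh2 was weak, at 5.03 log2 units in hBD-2 and 4.77 in PBS colons, under the array medians of 6.77 to 6.82. Mb stood at 7.43 and 7.15. The list's mean deviation per array ran from -0.016 to 0.17 in hBD-2 colons and from -0.093 to 0.0021 in PBS colons, so it overlapped. The defining markers Acta1, Ckm and Myh4, for muscle actin, creatine kinase and a fast myosin, differed by 0.091, 0.037 and 0.13. Mylpf, a myosin light chain, differed by -0.13, and all 4 had overlapping groups. Myh4 and Mylpf were weak too, with means of 4.14 and 4.13 log2 units in hBD-2 colons. The part of muscle cells in the Cox6a2 value was not tested.

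The other isoforms showed no common direction. Cox8c, a testis form, had 6.43, 6.60, 6.32 and 6.65 log2 units in hBD-2 1 to 4, against 5.93, 6.30, 6.01 and 6.36 in PBS 1 to 4 (0.35 ± 0.12, SE, adjusted p = 0.285). PBS 4 lay above hBD-2 3, so the groups overlapped. Cox6b2, also a testis form, had 6.01, 6.25, 5.82 and 6.15 in hBD-2 colons, against 6.63, 6.52, 6.42 and 6.03 in PBS colons. It was the 1 member lower at the unadjusted level (-0.34 ± 0.14, SE, adjusted p = 0.366), and PBS 4 lay among the hBD-2 values. Without hBD-2 1 and 3 it was -0.20.

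Cox7a1, the muscle form that is also high in brown fat, had 8.21, 7.88, 8.37 and 7.19 log2 units in hBD-2 colons, against 7.48, 7.61, 7.74 and 7.71 in PBS colons. hBD-2 4 was the lowest of the 8 and hBD-2 3 the highest, and the difference was 0.28 ± 0.22 (SE). Cox8b, another muscle form, and Cox4i2, the lung form, differed by -0.027 ± 0.19 and 0.062 ± 0.093 (SE).

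**Figure D4:**
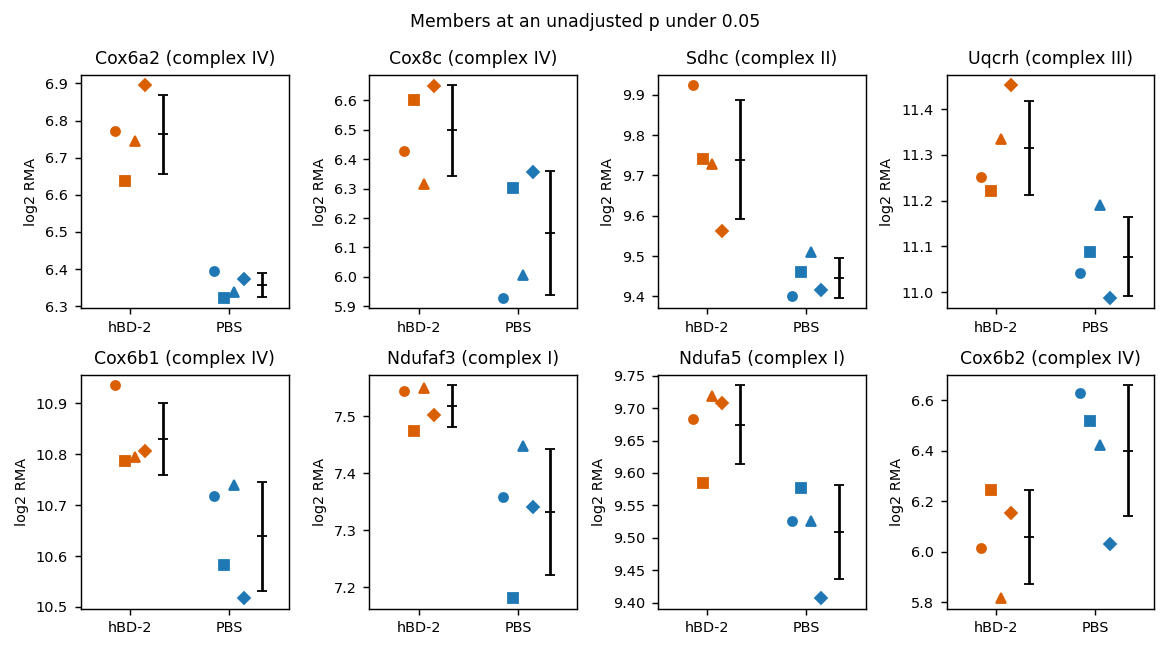
Log2 RMA value of each array for the 8 members with an unadjusted p under 0.05, hBD-2 (orange) left of PBS (blue), with group mean and SD (n = 4 each) as black bars; each panel has its own axis and levels are not comparable between panels. The groups do not overlap for Cox6a2, Sdhc, Uqcrh, Cox6b1, Ndufaf3 and Ndufa5, and overlap for Cox8c and Cox6b2.

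Complex V makes the ATP. None of its 17 genes was higher or lower at an unadjusted p under 0.05, and its median was 0.030, with 14 positive. Atp5b, the catalytic beta subunit, averaged 12.32 ± 0.068 log2 units in hBD-2 and 12.32 ± 0.072 in PBS colons (SD, n = 4 each). Its arrays were 12.36, 12.22, 12.33 and 12.38 in hBD-2 1 to 4, against 12.25, 12.30, 12.42 and 12.33 in PBS 1 to 4, and the 95% interval of the difference was -0.16 to 0.16. Atp5a1, the alpha subunit, had 12.37, 12.41, 12.38 and 12.43 in hBD-2 colons, against 12.39, 12.39, 12.43 and 12.30 in PBS colons (0.018 ± 0.065, SE). The groups of both genes overlapped throughout.

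The largest complex V value was that of Atp5e, the small epsilon subunit, with 7.91, 7.73, 7.97 and 7.68 log2 units in hBD-2 colons, against 7.57, 7.51, 7.78 and 7.61 in PBS colons. PBS 3 lay above hBD-2 2 and 4, and the difference was 0.20 ± 0.093 (SE, adjusted p = 0.431). Atp5g1, 1 of the 3 genes for the rotating c ring, differed by 0.11 ± 0.068, Atp5k, of the membrane part, by 0.14 ± 0.091, and Atp5o, of the peripheral stalk, by 0.097 ± 0.071 (SE). Atp5l, of the membrane part, stood at -0.057 ± 0.084 (SE).

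Genes that work with the complexes but fall outside the name rule lay in the same range. Of 10 electron carriers and complex III genes measured, none was lower at the unadjusted level and the median was 0.032. Higher at that level were 2 of the 10, a larger share than the 5.85% of all genes. These were Dhodh, which feeds electrons to ubiquinone from pyrimidine synthesis, at 0.19, and Coq9, of ubiquinone synthesis, also at 0.19. Cycs, cytochrome c, stood at -0.011 and Cyc1, cytochrome c1, at 0.031. Of 37 further assembly factors, 2 were higher (5.41%, against 5.85% of all genes) and none lower, with a median of 0.029. The higher ones were Coa7 at 0.21 and Atpaf1 at 0.19. None of 16 tricarboxylic acid cycle genes was called at that level in either direction, and their median was 0.065. Positive were 9 of the 10 genes of the first list, 24 of the 37 assembly factors and 12 of the 16 cycle genes.

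The 42 mitochondrial ribosomal protein genes had a median of -0.018, with 17 positive, none higher and 2 lower (4.76%, against 5.98% of all genes). The lower ones were Mrps30 at -0.26 and Mrpl3 at -0.20. None of 15 mitochondrial mass markers or 8 genes of uncoupling and oxygen radical defence was called. Their medians were -0.031 and -0.081, with 4 of 15 and 2 of 8 positive. Among 16 regulators of mitochondrial biogenesis, 1 was higher (6.25%, against 5.85% of all genes), 3 were lower (18.75%, against 5.98%) and 7 were positive. Ppargc1a, the coactivator PGC-1alpha, had 9.27, 8.14, 9.08 and 8.24 log2 units in hBD-2 1 to 4, against 8.09, 7.88, 8.13 and 7.62 in PBS 1 to 4. Its difference was 0.75 ± 0.25 (SE, adjusted p = 0.276), with the highest values in hBD-2 1 and 3. Tfam, which packages and transcribes mitochondrial DNA, stood at -0.20 ± 0.084 (SE, adjusted p = 0.393), Tfb1m at -0.24 and the related coactivator Pprc1 at -0.33. Nrf1, whose motif is described above, stood at 0.038. Of 14 glycolysis genes 10 were positive, with a median of 0.054. Of these 14, 1 was higher (7.14%) and 2 lower (14.3%). They include Pdk1, which inhibits pyruvate dehydrogenase, at 0.55 and the glycolytic activator Pfkfb3 at -0.50.

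Of 14 macrophage markers, 11 were lower in hBD-2 colons at the unadjusted level (78.6%, against 5.98% of all genes) and none higher, with a median of -0.55. Aif1 passed the adjusted threshold (adjusted p = 0.0467). Of 11 fibroblast markers 8 were lower (72.7%), of 9 T cell markers 4 (44.4%) and of 12 smooth muscle markers 2 (16.7%). Their medians were -0.45, -0.30 and -0.19. The 21 colonocyte markers had a median of 0.037, with 2 higher (9.52%, against 5.85% of all genes). The 10 goblet cell markers had 0.19, with 1 higher (10.0%). Posterior colon genes had a median of 0.68 (2 of 11 higher, 18.2%). Fat cell markers had 0.0049 (1 of 11 lower, 9.09%) and proliferation markers 0.021 (none of 11 called). The mean deviation of the macrophage list was -0.38 to -0.12 on the hBD-2 arrays and 0.13 to 0.38 on the PBS arrays. Its part in the members' values was not tested. With the colonocyte mean as a covariate, 70 members were positive and 6 were higher, where 6.32% of all genes were. That mean was -0.079, 0.14, -0.030 and 0.018 on hBD-2 1 to 4, and Fabp2 in it ran from 6.75 to 9.65 there. Car4 and Slc26a3 of the same list were highest on hBD-2 1 and 3. The share of absorptive cells was not measured, and its part in the members' values was not tested.

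**Figure D5:**
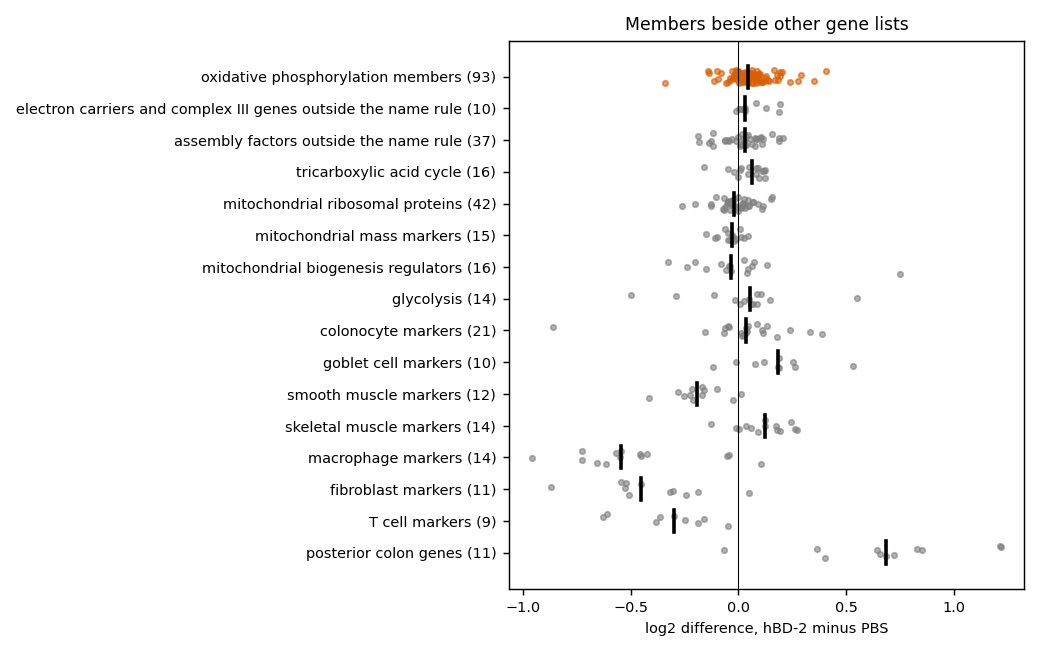
Log2 difference, hBD-2 minus PBS, of each gene (points) of the oxidative phosphorylation members and of 15 other lists, with the number measured in brackets and a bar at each median. The members cluster around 0.044, while macrophage, fibroblast and T cell markers lie at lower values and posterior colon genes at higher ones.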

How the data were processed

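Total RNA of whole colon was labelled with the Affymetrix WT Pico kit, per the labels' protocols. The authors deposited log2 expression values for 22203 probe sets, made with oligo and RMA per the submitters' processing notes, with no version stated. RMA corrects background, equalises the arrays' distributions and summarises probes, so a shift of all genes between mice would not show. For the array's genome build, the sources used here give nothing.

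By GEO's platform annotation, 19572 probe sets had 1 gene symbol, none had several, and 2631 were unnamed here. The probe set with the highest mean was kept for each of 55 genes with several, which left 19505 genes. Groups came from the sample titles. Differences were fitted as hBD-2 minus PBS with limma 3.58.1 (R 4.3.3, lmFit and eBayes, two-sided, Benjamini-Hochberg over 19505 genes, threshold 0.05). Errors and 95% intervals are moderated. The number of arrays limits precision, and p-values rest on 4 mice against 4. The code was tested on simulated data.

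Members and the 18 context lists were chosen with earlier results of these data known, so their counts are descriptions beside all genes, without a test. Named in the text were the members with an adjusted p under 0.05, in each complex the 4 lowest p and the largest difference in each direction, 2 assembly factors, and a preset list of subunits. In each context list the rule took the 2 lowest p and a few preset genes, of which only some are named. Epcam, Krt20, Acta1, Ckm, Myh4 and Mylpf stand as defining markers. Ndufs3, Ndufb4, Ndufb4b, Cox7b2, Tfb1m and Fabp2 fall outside the rule and were chosen after their values were seen. Promoters came from RefSeq (GRCm38.p6) and were searched for 4 motifs on both strands. No protein comparison of the isoforms and no other background correction was run. Samples with the same replicate number correlated at -0.15, 0.14, 0.24 and 0.045 in their deviations, and the numbers were not treated as pairs.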

Additional observations from a re-analysis of the deposited data

Results flagged for a closer look

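In 3 of 90 groups of 4 arrays, over the named members and the complex means, 1 array lay far from the other 3 by Dixon's criterion. Chance gives about 1 in 20. For Ndufa4, PBS 2 stood at 11.39 log2 units while the other PBS arrays lay at 11.49 to 11.51. For Cox6a1, hBD-2 4 stood at 11.87 while the other hBD-2 arrays lay at 11.99 to 12.01. For Cox6b1, hBD-2 1 stood at 10.94 while the other hBD-2 arrays lay at 10.79 to 10.81, and without that array its difference had an unadjusted p above 0.05.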

How the results depend on the processing

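The count of members past the adjusted threshold was 0, and 1 (Cox6a2) with array weights or at an adjusted p under 0.1. Over all genes that count was 8, and 0 to 91 across the alternatives. Members higher at an unadjusted p under 0.05 numbered 7, and 4 to 10 when each array was left out (4 without PBS 4, 4 without hBD-2 1). Over all genes 5.85% were higher, and 3.93% to 7.43% when each array was left out. Members higher numbered 3 without hBD-2 1 and 3, where 7.35% of all genes were higher, and 3 with the posterior colon covariate, where 7.33% were. At an unadjusted p under 0.01 they numbered 2, and the share over all genes at that level is not given here. Members lower numbered 1, and 0 to 2 when each array was left out. Over all genes 5.98% were lower, and 4.57% to 6.95% when each array was left out. Without the dimmer 50% of probe sets (85 members tested) 0 members were lower, where 8.43% of all genes were. With the posterior colon covariate 2 were lower, where 5.84% were, and at an unadjusted p under 0.01 the count was 0. Centring each array on its median moved the split over all genes to 1497 higher and 976 lower, against 1142 and 1167. The replicate block gave 8 members higher, 1 lower and 0 adjusted, against 7, 1 and 0 without the block. With the block, 6.90% of all genes were higher and 6.25% lower. The labels do not say whether the replicate numbers pair the mice. The medians of the complexes moved by less than the spread between mice in every alternative, between -0.0098 and 0.085. For complex I the SD between mice, 0.055 in hBD-2 and 0.057 in PBS colons, exceeded the median of 0.044. A change of sign could thus stay within the spread, as it did at -0.0098. Of 733 values of named members under alternatives, 34 changed sign, none with an unadjusted p under 0.05 on either side. Why counts moved was not tested. The deposited values carry no measure of background, so weak probe sets are less certain.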
